A study of Mus musculus with 6 samples.

Results

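Expression of 10 ETS family transcription factor genes was measured by RNA sequencing after exposure of EL4 cells to RGFP966 or vehicle; EL4 is a line grown from a T lymphoma of the mouse, here labelled as wild type. RGFP966 is an inhibitor of the histone deacetylase HDAC3, and it was in the medium at 10 µM for 24 h. The genes were Etv4, Etv5, Etv6, Ets1, Ets2, Elf1, Elf4, Fli1, Elk3 and Gabpa, taken by symbol from a table of 51912 Ensembl mouse genes. They are 10 of the 27 ETS family genes looked up in that table, and all 10 passed the filter on low counts. The 10 were chosen with their response to RGFP966 in these libraries already known, so their own values are given as a description, without p-values. The lists of related genes below were also chosen with earlier results of these data known. Adjusted p-values printed for list genes, and calls of the 10 factors, are therefore a description too. The series holds 3 RGFP966 and 3 vehicle libraries of total RNA from this 1 cell line, and whether each was a culture of its own is not stated. Any p-value therefore measures only the spread between these libraries, which may be technical.

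ETS factors share a winged helix-turn-helix DNA-binding domain, the ETS domain, which contacts a GGAA core. The subfamilies differ in flanking sequence preference, in partner proteins and in whether they activate or repress. In T cells, ETS1 and FLI1 act in thymocyte development together with RUNX factors, and GABPA and ELF1 bind promoters of cytokine receptor and housekeeping genes. ETV6 is a repressor that recruits corepressor complexes, among them complexes that contain HDAC3. ETV4 and ETV5 belong to the PEA3 group, whose genes respond to RAS and ERK signalling and are repressed by Capicua, the product of Cic.

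The 6 libraries held 12935443 to 14768540 counts with RGFP966 and 15380331 to 16451017 with vehicle (p = 0.1 in a two-sided exact permutation test, the lowest value that 3 against 3 libraries can give). Markers of T cells were present: all 9 listed T cell genes were tested, and their summed level was 1700 to 1742 CPM (counts scaled to a common library total) with RGFP966 and 1638 to 1643 with vehicle. B cell, myeloid and retina lists summed to at most 2.69, 10.3 and 3.55 CPM in any library. Ms4a1 of the B cell list and Adgre1 of the 5 myeloid genes had 0 counts throughout. The retina list of 8 genes was included because the submitters' extraction text names retinas, and Crx, Rpe65 and Gnat1 had 0 counts. In the endothelial list of 5 genes, the tissue in which Erg and Fli1 are best known, the sum was 66.0 to 68.9 CPM with RGFP966 and 53.8 to 56.5 with vehicle. That sum came from Pecam1 and Tek, while Kdr had 0 counts and Cdh5 and Vwf had 2 each over all libraries. The fibroblast list, at 54.2 to 56.6 CPM with RGFP966 and 44.1 to 45.1 with vehicle, was carried by Pdgfra. The T cell, endothelial and fibroblast sums were higher in every RGFP966 library than in any vehicle library, and their part in the results below was not tested. In bulk RNA, fewer cells of a kind and less RNA per cell cannot be told apart.

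Promoter sequence was available for 7 of the 10 genes, in 10 windows of 250 bases upstream of RefSeq starts (GRCm38.p6). Etv4, Ets1 and Fli1 had no entry. The windows of Etv5, Elk3 and Gabpa are shown because these genes stand for a PEA3 factor, for the member with the highest fold change and for a promoter with the extended ETS core. Of the Etv5 windows, the one with the most matches to the Capicua octamer was chosen. In Etv5 (chr16:22438369-22438618, minus strand) the capitals mark TGAATGGG or its reverse complement, a form of the octamer bound by Capicua. In Elk3 (chr10:93311160-93311409, minus strand) and Gabpa (chr16:84835024-84835123, plus strand, the last 100 bases of its window) the capitals mark GGAA or TTCC.
Etv5: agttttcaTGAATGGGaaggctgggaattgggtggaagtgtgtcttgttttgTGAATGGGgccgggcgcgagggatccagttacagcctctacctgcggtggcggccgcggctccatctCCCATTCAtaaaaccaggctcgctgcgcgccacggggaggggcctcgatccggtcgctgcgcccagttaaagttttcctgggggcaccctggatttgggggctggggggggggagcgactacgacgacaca
Elk3: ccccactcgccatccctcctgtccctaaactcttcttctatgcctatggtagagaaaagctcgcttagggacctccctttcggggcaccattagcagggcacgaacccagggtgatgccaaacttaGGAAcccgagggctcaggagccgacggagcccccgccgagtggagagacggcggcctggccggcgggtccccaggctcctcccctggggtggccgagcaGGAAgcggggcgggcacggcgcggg
Gabpa: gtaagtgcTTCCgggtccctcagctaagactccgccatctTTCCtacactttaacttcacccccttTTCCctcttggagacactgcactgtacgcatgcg

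The Etv5 window shown held 3 Capicua octamers, and another Etv5 window (chr16:22439571-22439820, minus strand) held 0. The window shown lies within the annotated span of the gene (22381309 to 22439719). The Gabpa stretch shown also lies within the annotated span of its own gene (84834925 to 84863779). It was cut to the bases after the last one annotated as untranslated region. A window of Ets2, of Elf4 and of Elf1 likewise lies within the span of its gene. Searched on both strands as TGAATGAA, TGAATGGA, TGAATGAG and TGAATGGG, the octamers occurred at least once in 3.86% of all 32851 mouse promoter windows of that length and at least 3 times in 0.0426%. The last form was added to the search after the Etv5 sequence had been read, and no other member window held any of the 4 forms. All 3 matches in Etv5 were TGAATGGG. The comparison with all windows was therefore fixed by these choices, and nothing is read from it. The GGAA core was found in 8 of the 10 member windows, with a median of 2 matches, against 93.4% of all windows and a median of 3. The longer form CCGGAA, which contains that core, was found in 1 member window, that of Gabpa, and in 12.03% of all windows. The Gabpa window as a whole held 5 GGAA cores, and 18.03% of all windows held at least 5. Member windows had a median GC content of 64.6%, against 52.4% over all windows. A match is a description of the letters and shows no binding in these cells.

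The PEA3 factors Etv4 and Etv5 lay on opposite sides of 0. Etv4 (chromosome 11, 101769742 to 101785371, minus strand, ENSMUSG00000017724), which encodes an activator used in branching organs and in tumours with active ERK signalling, had 55, 47 and 84 counts in RGFP966 libraries 1 to 3, against 118, 116 and 120 in vehicle libraries. These correspond to 4.04, 3.65 and 5.63 CPM with RGFP966 and 7.70, 7.10 and 7.68 CPM with vehicle. All RGFP966 libraries were below all vehicle libraries, and RGFP966 library 3 was the nearest to them. Etv4 fell to 4.44 ± 1.05 CPM with RGFP966, against 7.49 ± 0.337 with vehicle (SD, n = 3 each), a log2 fold change of -0.74 ± 0.17 (SE) or a change of -40.2%. Without RGFP966 library 3 the log2 fold change was -0.95, and without RGFP966 library 2 it was -0.62.

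Etv5 (chromosome 16, 22381309 to 22439719, minus strand, ENSMUSG00000013089), the paralog of Etv4, had 84.2, 81.9 and 81.9 CPM in RGFP966 libraries and 78.1, 72.1 and 74.8 CPM in vehicle libraries. The groups did not overlap, by a margin of a few CPM. Etv5 rose to 82.7 ± 1.34 CPM with RGFP966, against 75.0 ± 2.97 with vehicle (SD, n = 3 each), a log2 fold change of 0.14 ± 0.05 (SE). Of the Etv5 sequence, 24.5% of the 50-base words in its exons also occur in other annotated genes, the predicted gene Gm4798 most. That gene had 8, 4 and 13 counts with RGFP966 and 6, 10 and 5 with vehicle, far under the 1056 to 1222 counts of Etv5. The call of Etv5 did not hold without RGFP966 library 1, 2 or 3 (log2 fold change 0.13, 0.15 and 0.16) or without vehicle library 2 or 3 (0.11 and 0.14), nor in the DESeq2 Wald test or with no filter on low counts (0.14 each).

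**Figure D1:**
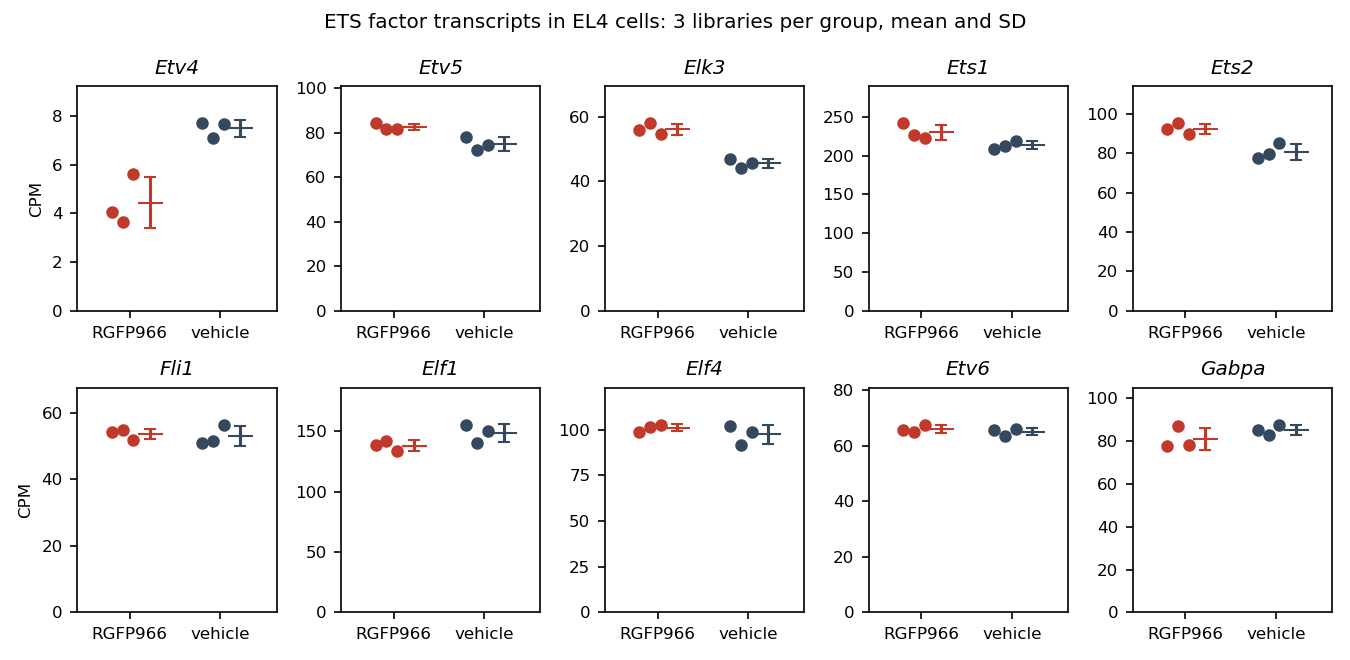
Transcript level of each of the 10 ETS factors in CPM (vertical axes, each from 0), with 1 point per library and the mean ± SD beside them, for 3 RGFP966 (left, red) and 3 vehicle libraries (right, dark). Etv4 lies between 3.65 and 5.63 CPM with RGFP966 and between 7.10 and 7.70 CPM with vehicle; the groups of Etv5, Elk3, Ets1 and Ets2 also stand apart, and those of the other 5 genes overlap.

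Among Ets1, Ets2 and Fli1, the pair Ets1 and Ets2 rose by small amounts and Fli1 was not called. Ets1 (chromosome 9, 32636221 to 32757820, plus strand, ENSMUSG00000032035), a factor of lymphoid cells that partners RUNX1 on T cell receptor enhancers, had 241 CPM, 226 CPM and 223 CPM with RGFP966, and 209 CPM, 213 CPM and 219 CPM with vehicle. The groups did not overlap, but the lowest RGFP966 and the highest vehicle library were close. The means were 230.2 ± 9.74 CPM with RGFP966 and 213.7 ± 5.14 CPM with vehicle (SD, n = 3 each), a log2 fold change of 0.11 ± 0.04 (SE). The call was lost without RGFP966 library 1 or 2 (0.07 and 0.12), without vehicle library 1 or 2 (0.09 and 0.10), in the DESeq2 Wald test (0.11) and with no filter on low counts (0.11).

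Ets2 (chromosome 16, 95702075 to 95721051, plus strand, ENSMUSG00000022895), a close paralog of Ets1 that ERK phosphorylates, had 92.5, 95.1 and 89.9 CPM with RGFP966 and 77.5, 79.4 and 84.9 CPM with vehicle. All RGFP966 libraries were above all vehicle libraries. Ets2 rose to 92.5 ± 2.57 CPM with RGFP966, against 80.6 ± 3.87 with vehicle (SD, n = 3 each), a log2 fold change of 0.20 ± 0.05 (SE). Fli1 (chromosome 9, 32422204 to 32542861, minus strand, ENSMUSG00000016087), which lies 93.4 kb from Ets1, had 54.2, 54.7 and 51.9 CPM with RGFP966 and 50.8, 51.4 and 56.3 CPM with vehicle. Its groups overlapped, and its log2 fold change was 0.02 ± 0.06 (SE, 95% interval -0.10 to 0.14). Under other settings that value ranged from -0.01 to 0.07.

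Elk3 had the highest fold change of the 10. It encodes a ternary complex factor, a class that binds DNA next to serum response factor and is phosphorylated by ERK, and ELK3 represses its targets until it is phosphorylated. Elk3 (chromosome 10, 93247414 to 93311135, minus strand, ENSMUSG00000008398) had 55.9, 57.9 and 54.5 CPM with RGFP966 and 46.8, 44.0 and 45.7 CPM with vehicle. The gap between the lowest RGFP966 and the highest vehicle library was wider than the range within either group. Elk3 rose to 56.1 ± 1.69 CPM with RGFP966, against 45.5 ± 1.41 with vehicle (SD, n = 3 each), a log2 fold change of 0.30 ± 0.06 (SE) or a change of 23.2%. Exons of Cdk17 on the other strand cover 6.95% of its exonic length, and Cdk17 measured -0.01 on the log2 scale (not called by edgeR).

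The ELF factors showed no call. Elf1 (chromosome 14, 79481194 to 79582494, plus strand, ENSMUSG00000036461), known for binding the interleukin-2 receptor alpha gene, had 139 CPM, 142 CPM and 133 CPM with RGFP966, and 155 CPM, 141 CPM and 150 CPM with vehicle. Vehicle library 2 lay among the RGFP966 libraries, and the log2 fold change was -0.11 ± 0.04 (SE). Without vehicle library 2 it was -0.15 and Elf1 was called lower. Elf4 (chromosome X, 48411046 to 48463132, minus strand, ENSMUSG00000031103), a factor that restrains proliferation of CD8 T cells through Klf4, measured 101 ± 1.94 CPM with RGFP966 and 97.6 ± 5.22 CPM with vehicle (SD, n = 3 each). Its groups overlapped, with a log2 fold change of 0.05 ± 0.05 (SE, 95% interval -0.04 to 0.15).

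The repressor gene Etv6 and the GA-binding protein gene Gabpa were not called either. Etv6 (chromosome 6, 134035700 to 134270158, plus strand, ENSMUSG00000030199) had 65.6, 64.8 and 67.4 CPM with RGFP966 and 65.5, 63.6 and 66.0 CPM with vehicle. The groups overlapped in part, and the log2 fold change was 0.02 ± 0.05 (SE, 95% interval -0.09 to 0.13). Gabpa (chromosome 16, 84834925 to 84863779, plus strand, ENSMUSG00000008976), which encodes the DNA-binding subunit of GABP, had 77.4, 86.8 and 78.2 CPM with RGFP966 and 85.2, 82.5 and 87.4 CPM with vehicle. RGFP966 library 2 was at the level of the vehicle libraries, the others below them, and the log2 fold change was -0.07 ± 0.05 (SE). Atp5j, transcribed the other way from the same region, overlaps 6.98% of the Gabpa exons and measured 0.04 (not called by edgeR).

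Across the 10 factors, 4 were called higher and 1 lower, at an adjusted p under 0.05 in edgeR's quasi-likelihood test over 13484 genes. Over all of those genes 11.4% were called higher and 11.9% lower, 23.3% in all, and groups did not overlap in 36.3% of them, as in 5 of the 10 factors. Of all calls 49.1% were rises, or 59.1% with upper-quartile scaling. Because the factors were picked from this comparison, nothing is read from these counts. The median log2 fold change of the 10 was 0.04 and that of all tested genes was -0.00, while the median size of change without its sign was 0.11 for the factors and 0.13 for all tested genes. For the 8891 tested genes whose mean CPM lay within the range of the factors, that median size was also 0.11. Of those genes, 27.6% were called. Among the 10, Etv4 at -0.74 had the largest fitted change in this fit and Elk3 at 0.30 the next.

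**Figure D2:**
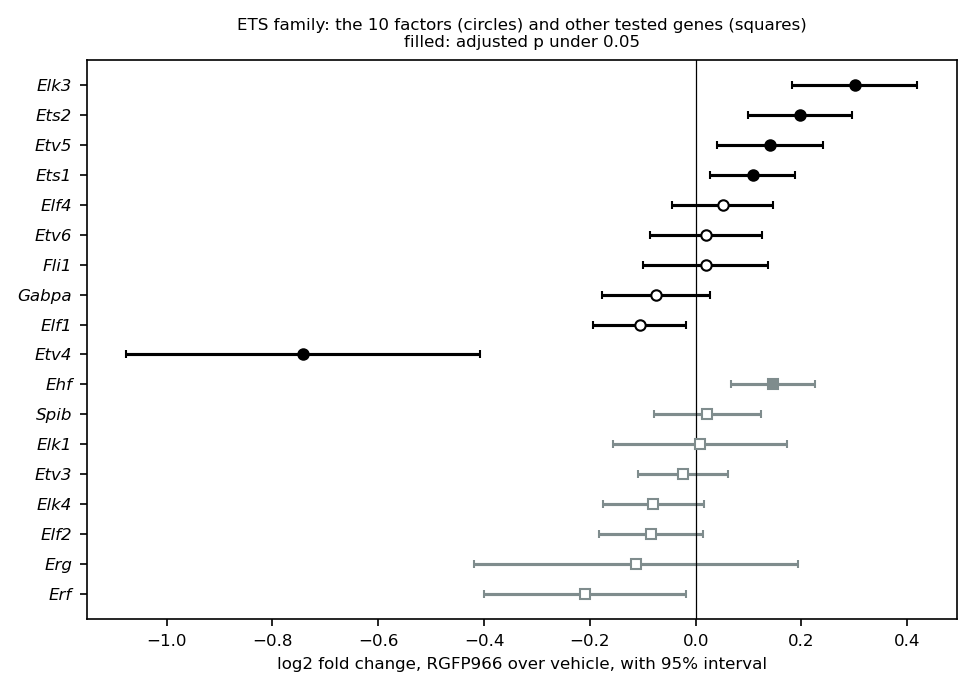
Log2 fold change of RGFP966 over vehicle (horizontal axis) with its 95% interval for the 10 ETS factors (black circles) and the other 8 tested ETS genes (grey squares); filled symbols passed an adjusted p under 0.05. Etv4, at -0.74, lies apart from the other genes, which range from -0.21 for Erf to 0.30 for Elk3.

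Levels of the factors can be compared per length, as CPM per kilobase of annotated exon (here RPKM). Ets1 was the most abundant of the 10, with 27.2 ± 1.15 RPKM with RGFP966 and 25.2 ± 0.606 RPKM with vehicle (SD, n = 3 each). Elf1 followed at 20.5 and 22.1 RPKM and Etv5 at 20.1 and 18.3 RPKM (means with RGFP966 and with vehicle). In the vehicle libraries these 3 did not overlap each other. With RGFP966, Elf1 (19.8 to 21.1 RPKM) and Etv5 (19.96 to 20.5 RPKM) overlapped.

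Elf4, Fli1, Gabpa and Ets2 formed the next group, between 13.6 and 16.7 RPKM over the RGFP966 libraries and between 13.4 and 16.6 over the vehicle libraries. With vehicle their order was Elf4, Fli1, Gabpa, Ets2, and with RGFP966 it was Elf4, Ets2, Fli1, Gabpa; neighbours in each order overlapped. Etv6, at 11.0 ± 0.223 RPKM with RGFP966 and 10.9 ± 0.212 with vehicle, stood below Elk3 with RGFP966 (12.3 ± 0.372) and above it with vehicle (10.0 ± 0.31). Etv4 was the lowest at 1.43 ± 0.338 RPKM with RGFP966 and 2.41 ± 0.108 RPKM with vehicle. It made up 0.526% of the summed RPKM of the ETS family with RGFP966 and 0.912% with vehicle, while the 10 factors together made up 56.1% to 57.4% with RGFP966 and 56.0% to 56.6% with vehicle.

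By RPKM, the ETS genes at the highest level in these T lymphoma cells were not among the 10. Ehf, an ETS gene known from epithelium, had 37.1 ± 1.06 RPKM with RGFP966 and 33.5 ± 0.346 RPKM with vehicle (SD, n = 3 each). Spib, a PU.1 relative known from B cells and plasmacytoid dendritic cells, had 31.3 ± 0.868 and 30.9 ± 2.18 RPKM (with RGFP966 and with vehicle). Both exceeded Ets1 in RPKM in every library of both groups. In mean CPM, Ets1 (230.2 with RGFP966, 213.7 with vehicle) exceeded Ehf (206.8 and 186.9) and Spib (89.9 and 88.6). The order therefore depends on the exonic length, here 8476 bases for Ets1, 5576 for Ehf and 2868 for Spib. That length takes in all annotated exons, and which transcripts the cells used was not tested. No annotated exon of another gene overlaps either of them. The epithelial relatives Elf3, Elf5 and Spdef had at most 3 counts in any library, and Spi1, the gene of PU.1, had 6, 2 and 5 counts with RGFP966 and 1, 4 and 2 with vehicle.

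**Figure D3:**
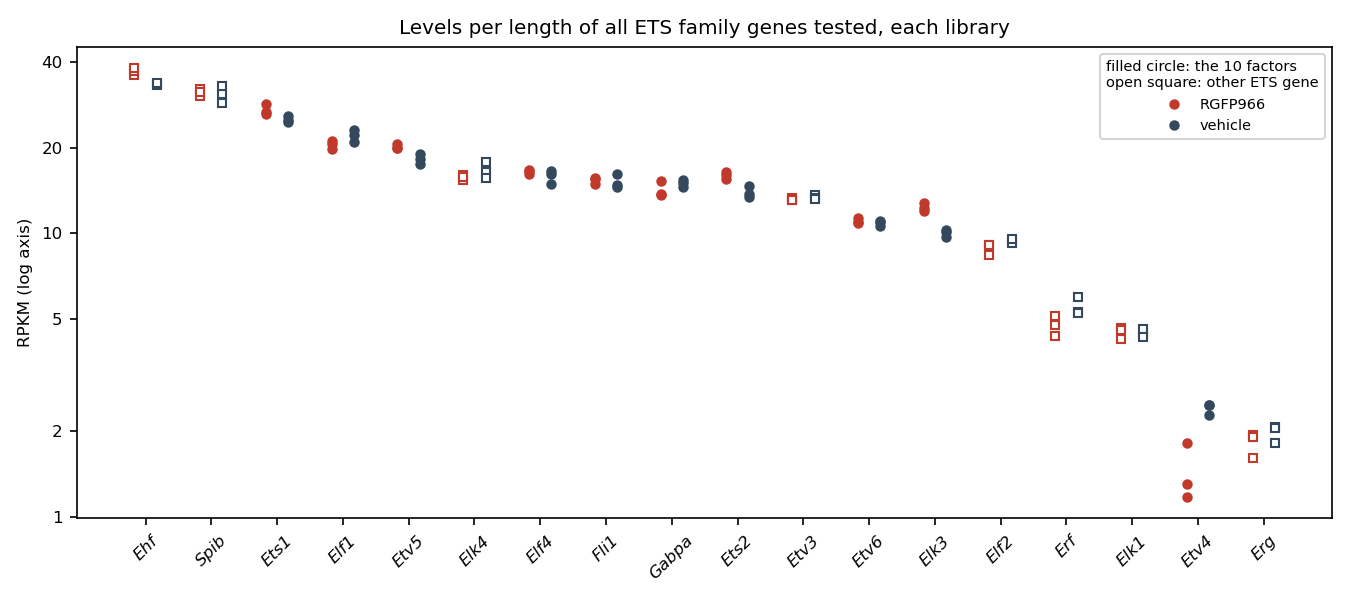
Level per length (RPKM, log axis) of all 18 tested ETS family genes in each RGFP966 (red, left of each pair) and vehicle library (dark, right), ordered by the vehicle mean; filled circles are the 10 factors and open squares the other ETS genes. Ehf and Spib lie above Ets1, and Etv4 and Erg lie at the bottom, where the 3 RGFP966 points of Etv4 fall below its 3 vehicle points.

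Of the 17 other ETS genes looked up, 8 were tested; 1 was called higher and 0 lower by edgeR, where 23.3% of all tested genes were called. At an unadjusted p under 0.05 the count of lower genes was 1 (Erf), and it was 0 by DESeq2 and limma-voom after adjustment. Ehf (chromosome 2, 103263433 to 103303278, minus strand, ENSMUSG00000012350) had 200.4, 208 and 212 CPM with RGFP966 and 185, 187 and 188 CPM with vehicle. The groups did not overlap, and Ehf rose by 0.15 ± 0.04 on the log2 scale (SE; adjusted p = 4.64e-03, edgeR). Spib measured 0.02 ± 0.05 (adjusted p = 0.809, edgeR). The ternary complex factor genes Elk1 and Elk4, relatives of Elk3, measured 0.01 ± 0.08 and -0.08 ± 0.05 (adjusted p = 0.954 and 0.244, edgeR). The repressor gene Etv3 measured -0.02 (adjusted p = 0.739) and the ERK-regulated repressor gene Erf -0.21 ± 0.10 (adjusted p = 0.108, edgeR), with groups that did not overlap. Elf2, a relative of Elf1, measured -0.08 (adjusted p = 0.229), also without overlap, and Erg, which lies 115 kb from Ets2, measured -0.11 (adjusted p = 0.656, edgeR). The median of the 8 was -0.05, against -0.00 over all tested genes.

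The remaining 9 did not pass the filter, with at most 6 counts in any library. Among them was Etv1, the third PEA3 gene, with 1, 3 and 2 counts with RGFP966 and 1, 1 and 0 with vehicle. Elf5, Fev, Spic and the pseudogene Etv3l had 0 counts in all 6 libraries. A count of 0 allows up to 3 counts, or 0.233 CPM in the shallowest RGFP966 and 0.196 CPM in the shallowest vehicle library, with counting error alone considered.

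Of the 15 partner and corepressor genes of ETS factors that were tested, 2 were called higher and 6 lower. Over all tested genes 11.4% were called higher, 11.9% were called lower, and 36.3% had groups without overlap. Gabpb2, which encodes a beta subunit that pairs with GABPA, had 220.8 CPM, 207.7 CPM and 229.5 CPM with RGFP966, and 264 CPM, 262 CPM and 271 CPM with vehicle. It fell by 0.28 on the log2 scale (SE 0.04; adjusted p = 4.16e-07, edgeR), without overlap between the groups. The other beta subunit gene, Gabpb1, measured 0.10 ± 0.05 (adjusted p = 0.178, edgeR). Srf, the gene of the serum response factor that ELK3 binds beside, had 79.5, 81.4 and 79.4 CPM with RGFP966 and 99.2, 98.2 and 96.1 CPM with vehicle. It fell by 0.29 (SE 0.05; adjusted p = 5.27e-06, edgeR), again with every RGFP966 library lower.

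The partner genes of ETS1 moved both ways. Runx1 rose to 49.0 ± 3.98 CPM with RGFP966, against 38.6 ± 2.28 with vehicle (SD, n = 3 each), a log2 fold change of 0.35 ± 0.07 (adjusted p = 7.33e-05, edgeR). Cbfb, the gene of the shared beta subunit of RUNX factors, fell to 182.5 ± 3.80 CPM, against 220 ± 7.97 with vehicle (-0.27; adjusted p = 9.74e-07, edgeR). Runx3 was not called. Rb1, the retinoblastoma gene, whose product binds ELF1, rose by 0.27 (adjusted p = 3.09e-05, edgeR), with 14.9% of its exonic length overlapped by exons of 2 other genes, of which Rcbtb2 covers 8.11%.

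Genes of the SIN3 and CtBP corepressors, which ETV6 and ELK3 are known to use, were lower. Sin3b measured -0.21 (adjusted p = 1.06e-03), Sin3a -0.18 (adjusted p = 3.28e-03) and Ctbp1 -0.14 (adjusted p = 5.69e-03, edgeR), each with groups that did not overlap. Hdac3, the gene of the inhibited enzyme, measured -0.05 ± 0.05 (adjusted p = 0.482, edgeR). Ncor1 was not called. Ep300 and Crebbp, coactivator genes, were not called, and Ctbp2 had at most 5 counts in any library. The median log2 fold change of the list was -0.06, against -0.00 over all tested genes, and 23.3% of all tested genes were called.

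Among genes known to control ETV4 and ETV5, Cic, the gene of the repressor Capicua, had 162 CPM, 149 CPM and 161 CPM with RGFP966, and 177 CPM, 164 CPM and 179.7 CPM with vehicle. It fell by 0.14 on the log2 scale (SE 0.04; adjusted p = 0.0111, edgeR), a call lost without RGFP966 library 2 (-0.11), vehicle library 1 (-0.12) or vehicle library 3 (-0.11). Trib1, a pseudokinase gene whose product recruits the ubiquitin ligase COP1, rose to 89.9 ± 1.47 CPM with RGFP966, against 71.3 ± 5.49 with vehicle (SD, n = 3 each; 0.33, adjusted p = 1.80e-06, edgeR). Cul4a, a scaffold of the ligase complex that degrades ETV proteins, measured -0.13 (adjusted p = 0.0183, edgeR). That call was lost without RGFP966 library 2 or 3 (-0.12 each) or vehicle library 1 or 3 (-0.10 and -0.11), and with upper-quartile scaling. Cop1 itself was not called, nor were Det1, Ddb1, Trib2, Atxn1 and Atxn1l. In all, 1 of the 9 tested was higher and 2 lower, with a median of 0.05, where 23.3% of all tested genes were called.

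Sprouty and dual-specificity phosphatase genes, which ERK signalling induces and Capicua represses like the PEA3 genes, showed 1 call. Spry4 had 12.3, 12.6 and 13.9 CPM with RGFP966 and 19.04, 18.2 and 15.7 CPM with vehicle. It fell by 0.44 (SE 0.11; adjusted p = 1.23e-03, edgeR), with no overlap between the groups. Dusp6, a phosphatase gene that reads out ERK activity in many cells, measured -0.13 ± 0.06 (95% interval -0.25 to -0.00; adjusted p = 0.145, edgeR), and its groups overlapped. Spry1, Spry2, Spred1 and Shc3 had 0 counts in all 6 libraries. Of the 6 genes of this list that were tested, 0 were higher and 1 was lower by edgeR, with a median of -0.08, where 23.3% of all tested genes were called. The count of higher genes was also 0 at an unadjusted p under 0.05 and by DESeq2 and limma-voom.

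In the RAS, RAF, MEK and ERK genes themselves, 1 of 11 was higher and 1 lower. Hras fell to 34.5 ± 2.62 CPM with RGFP966, against 42.1 ± 1.75 with vehicle (SD, n = 3 each; -0.29, adjusted p = 1.34e-03, edgeR). Mapk3, the gene of ERK1, rose to 55.9 ± 1.91 CPM, against 48.9 ± 1.64 with vehicle (0.19; adjusted p = 0.0119, edgeR), a call lost without RGFP966 library 2 (0.17). The median of the 11 was 0.04, and 23.3% of all tested genes were called.

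**Figure D4:**
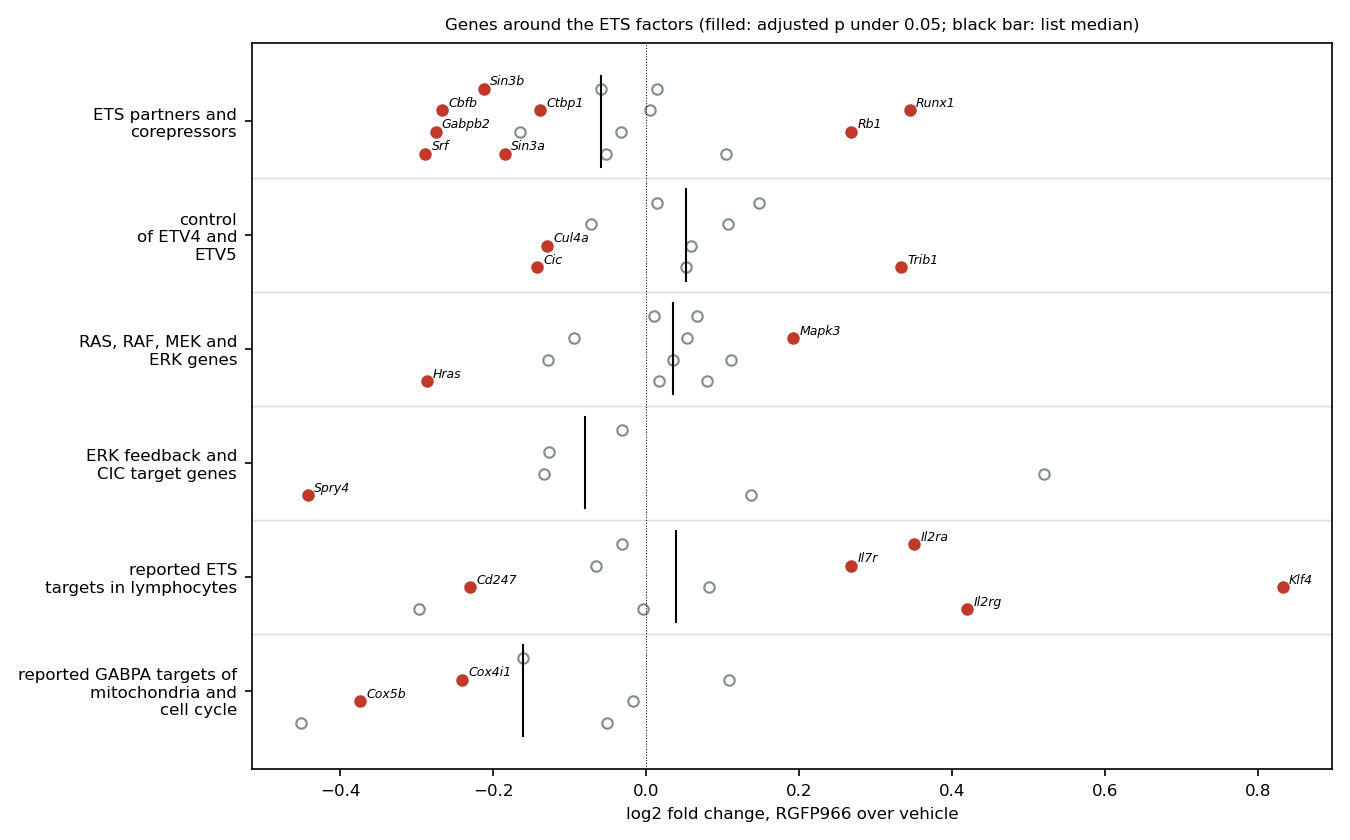
Log2 fold change of RGFP966 over vehicle (horizontal axis) for the tested genes of 6 lists around the ETS factors, 1 point per gene, filled and named where the adjusted p was under 0.05, with a black bar at each list's median. Partner and corepressor genes hold 6 filled points left of 0 and 2 right of it, and in the lymphocyte target list 4 of 5 filled points lie right of 0. Over all tested genes 11.4% were called higher and 11.9% lower. In the lymphocyte list the calls of Il2ra and Cd247 were lost in 6 and 9 of 14 other settings.

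Several cytokine receptor genes reported as ETS targets in lymphocytes were higher. Il7r, the interleukin-7 receptor gene that GABPA binds in T cells, had 197.5, 191.6 and 185.6 CPM with RGFP966 and 152.7, 159.7 and 164.5 CPM with vehicle. It rose by 0.27 on the log2 scale (SE 0.04; adjusted p = 1.60e-06, edgeR), with no overlap. Il2rg, the common gamma chain gene, rose by 0.42 (adjusted p = 3.71e-05, edgeR), with 30.5% of its exons overlapped by Gm20489. Klf4, a target of ELF4, rose to 4.84 ± 0.730 CPM, against 2.72 ± 0.403 with vehicle (0.83; adjusted p = 1.96e-03, edgeR).

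Il2ra, bound by ELF1 and ETS1, measured 0.35 (adjusted p = 0.0407, edgeR), a call lost without RGFP966 library 1 or 3 (0.35 and 0.31) or vehicle library 1 or 2 (0.37 and 0.27), in the DESeq2 Wald test (0.35) and with no filter on low counts (0.35). Cd247, the zeta chain gene that ELF1 binds, measured -0.23 (adjusted p = 0.0418, edgeR). That call was lost without RGFP966 library 2 or 3 (-0.23 and -0.16) or vehicle library 2 or 3 (-0.17 and -0.25) and under 5 other settings, and 60.3% of its exonic length is overlapped by 2 other genes, of which Pou2f1 covers 56.4%. Tcf7, Lck, Bcl2, Bcl2l1 and Klf2 were not called, and Il2rb and Prf1 had at most 7 counts. In all, 4 of the 10 tested were higher and 1 lower, with a median of 0.04, where 11.4% of all tested genes were called higher and 11.9% lower.

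Among genes reported as GABPA targets in mitochondria and the cell cycle, 0 of 7 were higher and 2 lower by edgeR. At an unadjusted p under 0.05 the count of higher genes was 1 (Tfam), and by DESeq2 and limma-voom it was 0. Cox5b and Cox4i1, subunit genes of cytochrome c oxidase, fell by 0.37 (adjusted p = 8.23e-09) and 0.24 (adjusted p = 1.29e-05, edgeR). Of the 50-base words in the exons of Cox5b, 11.94% also occur in other annotated genes, Gm11273 most. Exons of Emc8 on the other strand cover 9.935% of the exonic length of Cox4i1. Tfam, Tfb1m, Tfb2m and Polrmt, genes of mitochondrial transcription, were not called. Skp2, a ubiquitin ligase gene, measured -0.45 ± 0.59 (adjusted p = 0.672, edgeR), with a spread from 3.16 to 8.31 CPM over the RGFP966 libraries and from 4.22 to 10.6 over the vehicle libraries. The median of the 7 was -0.16, and 23.3% of all tested genes were called.

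The genes whose profile over the 6 libraries was most like that of Etv4, the member with the largest drop, were Myo9b, Cog2, Inpp5k, Patz1 and Dnajb1, with Pearson r of log2 CPM between 0.990 and 0.999. Their own log2 fold changes were smaller, between -0.22 and -0.17. Those most like Elk3, the member with the highest fold change, were S1pr5, Chl1, Skil, Atp1b2 and Fam117b, with r between 0.996 and 0.998 and log2 fold changes between 0.14 and 0.98. The 6 libraries fall into an RGFP966 and a vehicle group and the genes were picked for their r, so these values only describe the profiles.

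**Figure D5:**
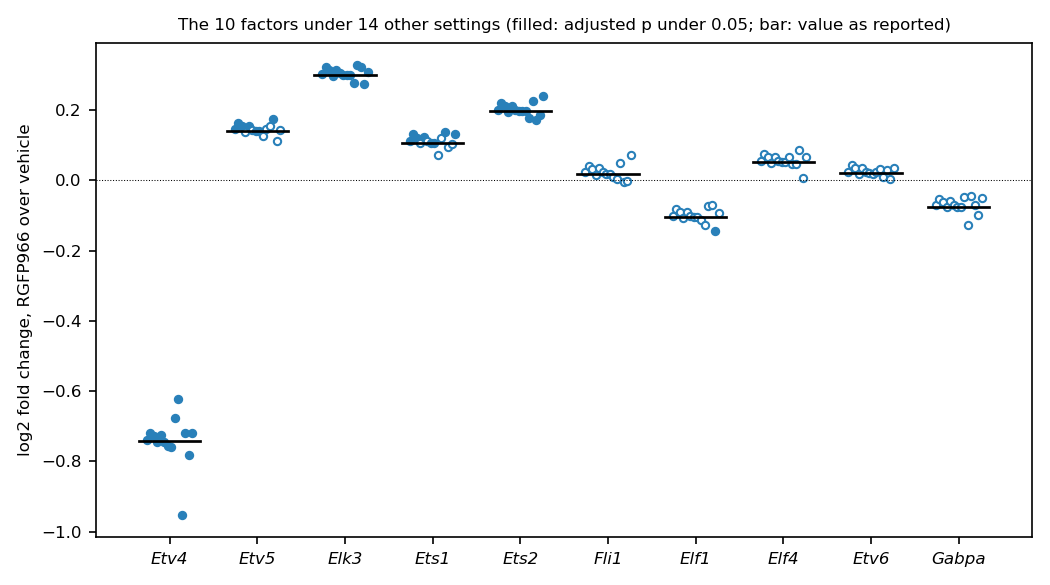
Log2 fold change of RGFP966 over vehicle (vertical axis) of the 10 ETS factors under 14 other settings (points, filled where the adjusted p was under 0.05), with a bar at the value given in the text. Etv4, Elk3 and Ets2 keep their direction and call at every point; Etv5 and Ets1 have open points among the filled ones, and Fli1 lies on both sides of 0. The settings draw on the same libraries from which the factors were picked.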

How the data were processed

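Raw read counts per Ensembl gene were used as the authors deposited them, for 3 RGFP966 and 3 vehicle libraries. The submitters' processing notes name HTSeq 0.6.0, TopHat2, Bowtie2 2.2.3, CASAVA and HISAT2 2.1.0, with build mm10. The role of each tool, the annotation and the strand option used for counting were not given in the sources used here. The RNA library kit named in the labels does not mark strand, so reads of antisense overlapping genes cannot be told apart.

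Symbols matched 51633 of 51912 IDs. Positions, exonic lengths and overlaps came from GENCODE M21 (GRCm38, the assembly of mm10), which holds 51719 IDs, and promoters from RefSeq. The fit was edgeR 4.0.16 in R 4.3.3 (robust quasi-likelihood F test, TMM scaling, filterByExpr, group as the only term, 6 libraries), with Benjamini-Hochberg adjustment over all 13484 genes tested and calls at an adjusted p under 0.05. SE was obtained as the size of the log2 fold change divided by √F. CPM use scaled library totals; RPKM divide them by exonic kilobases. Scripts were tested on simulated data. Likeness used log2 CPM (prior count 2) for genes averaging 5 CPM or more.

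The members and lists were chosen with earlier results of these data known. Named were all members, every tested ETS relative, up to 4 called genes per list and direction by smallest adjusted p, and Cic, Gabpb1, Hdac3, Dusp6, Spry1, Spred1 and Il7r whatever their result. Other list genes and the overlapping loci are named to account for whole lists and were chosen after their values were seen; some list genes are not reported here by name. Library totals of 12935443 to 16451017 limit precision, and counting limits cover counting error only. Pairs of libraries within a group differed more than counting error allows (chi-square over its degrees of freedom, 2.22 to 3.53), and no library was counted as a duplicate. Alternatives were DESeq2 1.42.0 size factors and Wald test, upper-quartile and total-count scaling, no filter, a minimum mean of 5 CPM, limma-voom (limma 3.58.1), a replicate block and leaving out each library.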

Additional observations from a re-analysis of the deposited data

How the results depend on the processing

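The number of factors called higher was 4, and 2 with no filter on low counts or in the DESeq2 Wald test; leaving out 1 library gave 2 to 3. The number called lower was 1, and 1 to 2 without 1 library, the second being Elf1 without vehicle library 2. Etv4, Elk3 and Ets2 kept their direction and call in all 14 settings, between -0.95 and -0.62, 0.28 and 0.33, and 0.17 and 0.24 on the log2 scale. All settings draw on the same libraries from which the factors were picked, so a kept call is no separate support. Calls over all genes ranged from 2265 (DESeq2 Wald test) to 3431 (replicate block), and from 2391 to 2821 without 1 library, against 3145. The RAS, RAF, MEK and ERK list had 2 calls, 4 with the replicate block and 1 to 3 without 1 library. The list of control of ETV4 and ETV5 had 3 calls, and 1 to 3 without 1 library. The lymphocyte target list had 5, 3 with no filter, and 3 to 4 without 1 library. The other lists stayed within 1.5 times their count in every setting. Rises were 49.1% of all calls and 59.1% with upper-quartile scaling. The deviations of same-numbered libraries correlated at -0.02 to 0.01, so the numbers gave no sign of pairing (not every library correlated best with its own number), and the replicate block left the same 5 factors called. The causes of these shifts were not tested. Depth limits Etv4 most, at 47 to 120 counts per library.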
